A study of Mus musculus with 2 samples.

Results

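The 9 genes described here encode proteins that endothelial cells use to start, restrain and dissolve blood clots or to display selectins. They were taken by symbol (Vwf, Selp, Sele, Thbs1, Thbd, Procr, Plat, F8 and Tfpi) from the 32285 genes counted in each library, and each symbol matched 1 gene. Single endothelial cells had been sorted from lymph nodes of mice after removal of CD45-positive cells, and all animals had received tamoxifen, the compound that switches on inducible Cre recombinases. Each of 2 droplet libraries held 4 pools told apart by hashtag antibodies: peripheral and mesenteric nodes of WT mice and the same 2 kinds of node of Xbp1-KO mice. The labels do not give the Cre line, the cells it acts in, the number of animals pooled or their sex.

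Weibel-Palade bodies are the storage granules of endothelial cells. They hold von Willebrand factor, the long multimer that captures platelets, and P-selectin, and they fuse with the surface within minutes of stimulation. Quiescent endothelium otherwise keeps blood fluid through thrombomodulin, the endothelial protein C receptor, tissue factor pathway inhibitor and tissue plasminogen activator. In lymph nodes, lymphocytes enter through high endothelial venules, the arteries and capillaries feed these venules, and lymphatic sinuses carry no platelets.

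After hashtag calling and quality filters 6648 cells remained in library 1 and 2627 in library 2, and 3 barcodes were shared by the libraries. Counts of unique molecular identifiers (UMIs, one per captured transcript) were summed per library, pool and subset, and a level is given as CPM (the share of that sum's UMIs on the usual scale of a normalised UMI count). Each subset therefore has 8 sums, 2 for each combination of tissue and genotype. Clusters were named from markers that did not include the 9 genes: 369 high endothelial-like cells (Glycam1, Fut7), 107 venous-like (Ackr1), 3517 capillary-like (Rgcc, Car4), 638 arterial-like (Gja5, Sema3g) and 3701 lymphatic-like (Prox1, Lyve1). The suffix is dropped below. Ptprc, the gene of CD45, was at or near 0 in all 5 subsets, at 0 to 0.1 CPM. A list of 10 leukocyte markers that includes Ptprc summed to 247 to 1059 CPM in high endothelial and 0 to 699 CPM in venous sums. Most genes of the list were at 0 in each of these sums. In capillary, arterial and lymphatic sums the list reached at most 324, 89.6 and 380 CPM. The high endothelial sums held 2 to 115 cells and the venous sums 1 to 26, so values there, above all in peripheral nodes, rest on few cells. Xist was detected in 73.1% to 82.5% of cells in the 2 Xbp1-KO pools of library 1 and in 76.8% to 85.4% in the 2 WT pools of library 2, and in under 2% of the others, so within a library genotype and Xist cannot be told apart, and the 2 libraries have them in opposite order. Xbp1 itself changed in Xbp1-KO by a log2 fold change of -1.04 ± 0.16 (SE) in lymphatic cells and -0.80 ± 0.16 in capillary cells. In edgeR it passed once the library entered as a block (adjusted p 0.00079 and 0.0044), but not without it (adjusted p 0.15 and 1.0).

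The 2 selectin genes are neighbours on chromosome 1 (GRCm38). Sele (ENSMUSG00000026582; 164048234 to 164057677, plus strand) and Selp (ENSMUSG00000026580; 164115264 to 164150026, plus strand) start 67030 bases apart. Sele encodes E-selectin, an adhesion molecule that is classically switched on by inflammatory cytokines, and Selp encodes P-selectin, the granule-stored one. The 250 bases before each start are shown because the pair differ in abundance in the same subsets (RefSeq, GRCm38.p6, plus strand, 5′ to 3′, Sele at chr1:164047984-164048233 and Selp at chr1:164115014-164115263). Capitals mark the match to a kappa-B-like pattern (GGGA, any 3 bases, TCC) on the minus strand; this pattern was chosen after the Sele sequence had been read.
Sele: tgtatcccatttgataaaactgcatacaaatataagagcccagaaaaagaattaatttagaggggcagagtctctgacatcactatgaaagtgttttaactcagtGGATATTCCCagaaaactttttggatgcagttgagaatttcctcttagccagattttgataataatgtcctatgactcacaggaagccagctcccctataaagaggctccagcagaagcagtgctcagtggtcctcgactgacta
Selp: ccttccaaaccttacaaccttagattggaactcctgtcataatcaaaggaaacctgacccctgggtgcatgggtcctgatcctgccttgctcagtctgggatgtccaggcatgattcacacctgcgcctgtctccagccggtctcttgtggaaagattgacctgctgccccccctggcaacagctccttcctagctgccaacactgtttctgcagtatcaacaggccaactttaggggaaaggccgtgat
The match starts at position -145 of Sele. The pattern occurred in 1267 of 32851 promoter windows (3.86%), searched on both strands, and among the 6 windows given for 5 of the 9 genes in that of Sele. TGACGTGG, an unfolded protein response element, occurred in 0.563% of all windows and in 0 of those 6, and TGACGTCA, a cAMP response element, in 1.55% and in 0 of the 6. The F8 window and 1 of the 2 Tfpi windows lie inside the annotated gene. A match is a string of letters and was not tested as a binding site.

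Vwf was the most venous of the 9 genes. Vwf (ENSMUSG00000001930; chromosome 6, 125546774 to 125686679, plus strand) ranged from 879 to 5892 CPM over the 8 venous sums, with a median of 2160 CPM. High endothelial sums followed at 65.4 to 518 CPM, arterial sums at 37.7 to 198 CPM, capillary sums at 5.84 to 67.0 CPM and lymphatic sums at 0.682 to 116 CPM. The venous range lay apart from all others, whereas each later neighbour in this order overlapped. After every cell had been thinned to 2000 UMIs, Vwf was detected in 73.3% of venous cells, 32.1% of high endothelial, 4.89% of capillary and 1.89% of lymphatic cells, and in 54 of 415 arterial cells. Unthinned, the shares were 87.9%, 61.5%, 6.51% and 3.13% in these subsets in turn, and 15.7% in arterial cells. Thinning left out 1020 capillary, 223 arterial, 106 lymphatic, 4 high endothelial and 2 venous cells that were too shallow. In 61 cells of the leukocyte clusters, which should lack Vwf, the share was 11.5% (95% exact binomial interval 4.74% to 22.2%), and in the 748 lymphatic cells led by Ccl20 and Coch it was 0.401%, at median depths of 4846.5 and 5310.0 UMIs. The leading genes of the venous cluster were Vwf, Cytl1 and Selp, and the 9 genes had not been used to cluster the cells. In these sums, fewer cells of a type and less RNA per cell cannot be told apart.

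Selp had its highest medians in venous and high endothelial sums, and Sele was low in every subset. Selp stood at 0 to 728 CPM in venous sums, with a median of 535 CPM, the 0 coming from a sum of 1 cell, and at 100.4 to 679 CPM in high endothelial sums, with a median of 145 CPM. In lymphatic sums Selp lay between 11.9 and 54.5 CPM, below every high endothelial sum. Capillary sums held at most 8.84 CPM and arterial sums at most 5.27 CPM. Sele was rare: 20 UMIs in all venous cells, 51 in high endothelial, 273 in lymphatic, and 1 each in arterial and capillary cells. Its medians were 8.96, 14.7 and 11.4 CPM in the first 3 of these, with overlapping ranges, and its thinned share was highest in venous cells, at 6.67% (11.2% unthinned).

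Procr had its highest median in lymphatic sums and Thbd in capillary sums, and the order of Thbs1 depended on the measure. Thbs1 (ENSMUSG00000040152; chromosome 2, 118111876 to 118127133, plus strand) encodes a matrix protein that platelets also release, and its medians were 147 CPM in lymphatic, 100.1 CPM in capillary, 95.3 CPM in venous, 51.7 CPM in high endothelial and 21.0 CPM in arterial sums, all neighbouring ranges overlapping. Pooled over cells, Thbs1 was instead highest in venous cells, at 314 CPM against 152 CPM in lymphatic cells, and its thinned share was 27.6% against 15.4%. The venous sums at 0 held 4 and 1 cells. Thbd (ENSMUSG00000074743; chromosome 2, 148404466 to 148408188, minus strand) encodes thrombomodulin, which turns thrombin into an activator of protein C. Thbd had its highest median in capillary sums, at 470.0 CPM (389 to 492 CPM), and its lowest in high endothelial sums, at 22.7 CPM (0 to 38.4 CPM). Venous sums, at 208 to 512 CPM, overlapped the capillary ones only through the WT peripheral sums of 4 and 1 cells, and without sums under 5 cells they reached at most 349 CPM. That high endothelial range lay below every sum of the other 4 subsets, the nearest being lymphatic at 111 CPM. Procr (ENSMUSG00000027611; chromosome 2, 155751117 to 155755471, plus strand) encodes the receptor that presents protein C to thrombomodulin. Its order was the reverse in part, with medians of 260.2 CPM in lymphatic, 177 CPM in venous, 63.4 CPM in high endothelial, 39.3 CPM in arterial and 22.2 CPM in capillary sums, where Thbd was highest.

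F8 was highest in lymphatic sums, Tfpi had its highest medians in high endothelial and lymphatic sums, and Plat in lymphatic and arterial sums. F8 (ENSMUSG00000031196; chromosome X, 75172715 to 75382615, minus strand) encodes coagulation factor VIII, which circulates bound to von Willebrand factor. It ranged from 332 to 914 CPM in lymphatic sums, above every other subset, where the highest single sum was 135 CPM in high endothelial cells. Capillary sums held 3.78 to 15.9 CPM and arterial sums 0 to 16.0 CPM. Vwf and F8, partners in plasma, thus had their highest levels in different subsets, venous and lymphatic. Tfpi (ENSMUSG00000027082; chromosome 2, 84432855 to 84476775, minus strand) encodes the inhibitor of the tissue factor pathway and had medians of 137 CPM in high endothelial, 111 CPM in lymphatic, 69.1 CPM in capillary, 65.0 CPM in venous and 19.4 CPM in arterial sums. Plat (ENSMUSG00000031538; chromosome 8, 22757727 to 22782844, plus strand) encodes tissue plasminogen activator, which starts fibrin breakdown, and was counted at 56.9 to 138 CPM in lymphatic and 31.6 to 94.4 CPM in arterial sums. Its medians in the other 3 subsets were at most 15.3 CPM.

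**Figure D1:**
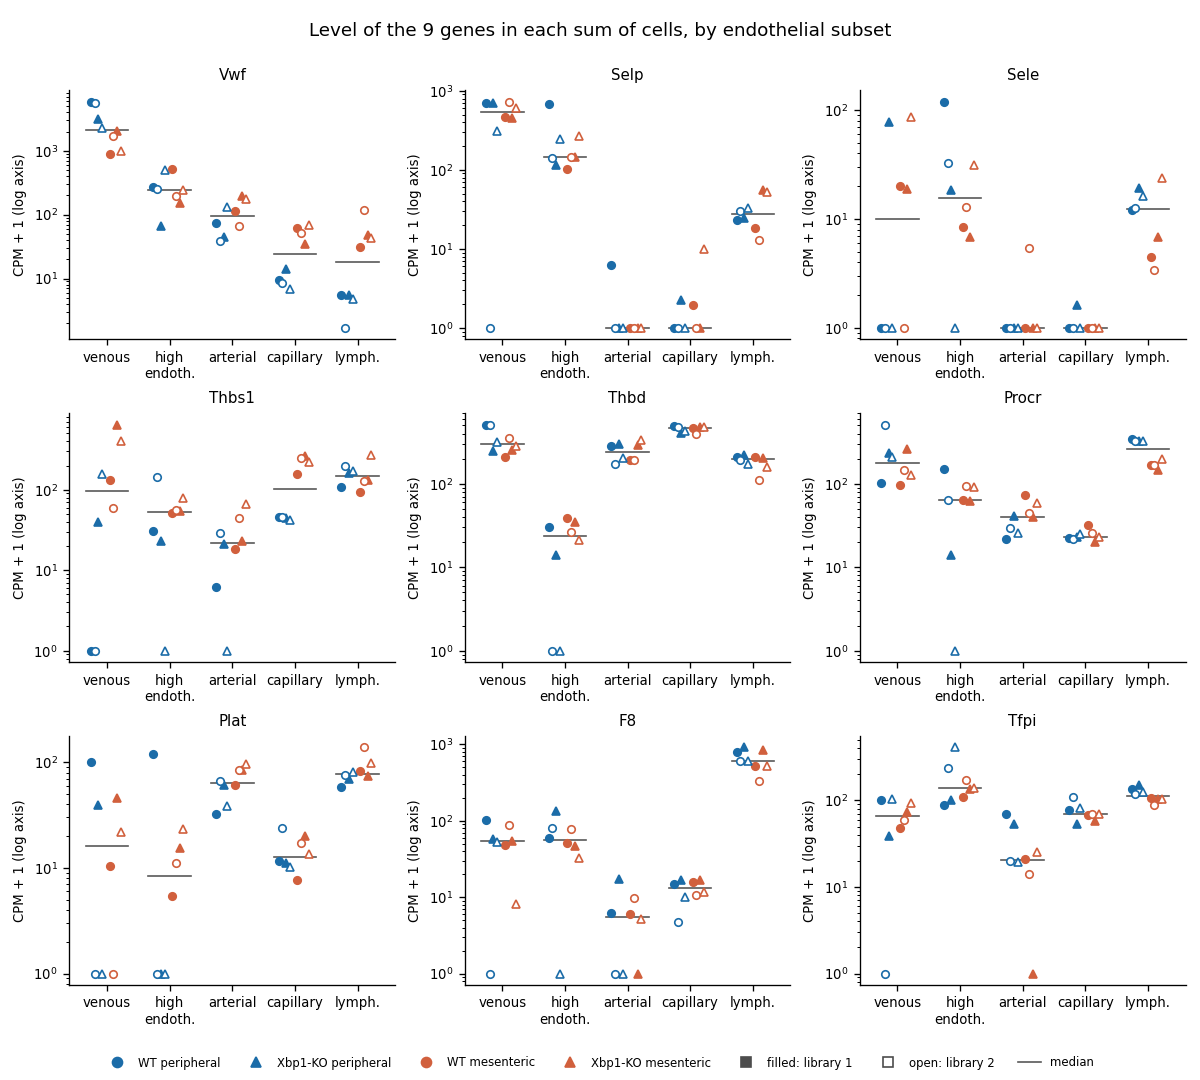
Level of each of the 9 genes in each sum of cells (CPM + 1, log axis) by endothelial subset; points are sums, colour gives the tissue, shape the genotype, fill the library, and the bar the median of the 8 sums. Vwf falls from 879 to 5892 CPM in venous sums to at most 116 CPM in lymphatic sums, while F8 is highest in lymphatic sums, at 332 to 914 CPM.

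Within the lymphatic subset the 6 clusters divided these genes among them. F8 was highest in the cluster led by Marco and Lyve1, at 1383 to 2159 CPM over its 8 sums, and in that led by Ptx3 and Mrc1, at 663 to 1558 CPM, Marco, Lyve1 and Mrc1 being markers of medullary sinus cells. Pooled over all cells, F8 then declined to 763 CPM in the Postn and Col14a1 cluster, 404 CPM in the Ccl20 and Coch cluster, 319 CPM in the Ackr4 and Gdf10 cluster and 83.3 CPM in the Igfbp5 and Nts cluster. Plat showed the opposite layout, with 178 CPM in the Igfbp5 and Nts cluster and 159 CPM in the Ackr4 and Gdf10 cluster, against 13.9 to 23.3 CPM in the other 4. However, 1 sum of the Postn and Col14a1 cluster, of 5 cells, reached 283 CPM of Plat. By the median of the 8 sums Procr was lowest in the Ptx3 and Mrc1 cluster, at 92.0 CPM, and highest in the Igfbp5 and Nts cluster, at 400.4 CPM, whereas pooled Procr was highest in the Postn and Col14a1 cluster, at 421 against 396 CPM. Pooled Thbd was likewise lowest in the Ptx3 and Mrc1 cluster, at 62.6 CPM against 153 to 273 CPM elsewhere. Pooled Vwf was 119 CPM in the Igfbp5 and Nts cluster and at most 4.38 CPM in the other 5, although 1 sum of the Ackr4 and Gdf10 cluster reached 76.6 CPM (7 UMIs in 13 cells).

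**Figure D2:**
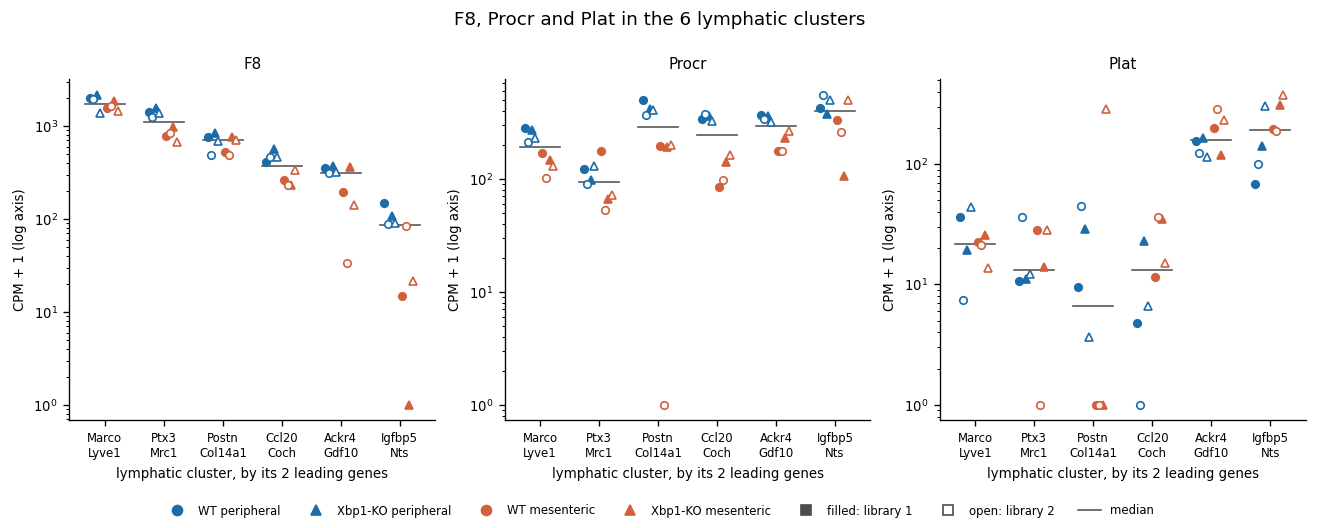
F8, Procr and Plat (CPM + 1, log axis) in the 6 lymphatic clusters, each named by its 2 leading genes, with the same point code as the plot of levels by subset. F8 is at 1383 to 2159 CPM in the Marco and Lyve1 cluster, Plat is high in the 2 clusters on the right, and peripheral sums of Procr lie above mesenteric ones in most clusters.

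The first comparison asked whether the genes differ between peripheral and mesenteric nodes. Vwf and Thbs1 were lower in peripheral capillary cells, and Vwf was lower and Procr higher in peripheral lymphatic cells. These calls were made by edgeR's quasi-likelihood test on the sums with both genotypes averaged, at a Benjamini-Hochberg adjusted p under 0.05 over all tested genes. In capillary cells 2 of the 7 genes tested passed, both lower, where 1.14% of the 9370 genes tested were called. In lymphatic cells 2 of 9 passed, 1 in each direction, where 5% of 10670 were called. None passed in arterial (5 tested; 0.334% of genes called), high endothelial (8; 0.365%) or venous cells (5; 0.346%). The median log2 change of the tested members was -0.12 in capillary and 0.10 in lymphatic cells, beside 0.00 and 0.01 over all tested genes.

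Vwf in peripheral capillary sums was 8.31 and 7.56 CPM in WT (libraries 1 and 2) and 13.3 and 5.84 CPM in Xbp1-KO. In mesenteric capillary sums it was 60.5 and 50.7 CPM in WT and 33.5 and 67.0 CPM in Xbp1-KO. Every mesenteric sum lay above every peripheral one, and the log2 change (peripheral against mesenteric) was -2.59 ± 0.29 (SE, n = 4 sums a tissue; edgeR adjusted p 0.00046). In lymphatic sums Vwf was 4.49, 0.682, 4.58 and 3.85 CPM in peripheral nodes (WT of libraries 1 and 2, then Xbp1-KO) and 29.8, 116, 46.4 and 41.5 CPM in mesenteric nodes. Again the groups did not overlap, and the change was -3.73 ± 0.41 (edgeR adjusted p 0.00019). The size rested in part on the library: without library 1 the changes were -3.12 in capillary and -5.39 in lymphatic cells, and without library 2 they were -2.09 and -3.12.

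Arterial Vwf followed the same direction and venous Vwf the other. The arterial sums were 73.8, 37.7, 44.1 and 130.0 CPM in peripheral and 115, 65.7, 198 and 177 CPM in mesenteric nodes, in the same order of pools, and these ranges overlapped. The arterial change was -0.94 ± 0.32 (adjusted p 0.58), and -0.97 ± 0.27 in the blocked fit, where it passed (edgeR adjusted p 0.037; 1.45% of genes called in that fit). In venous sums Vwf was 5892, 5629, 3194 and 2285 CPM in peripheral and 879, 1688, 2035 and 978 CPM in mesenteric nodes. The peripheral venous sums were all higher, but hold 4, 1, 16 and 4 cells, and the change of 1.43 ± 0.33 did not pass (edgeR adjusted p 0.060; 0.079 with the block). High endothelial Vwf had overlapping ranges, at 269 ± 175 CPM (SD, n = 4) in peripheral and 277 ± 165 CPM in mesenteric nodes.

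Capillary Thbs1 was tightly grouped in peripheral nodes. Its sums were 44.9 and 45.3 CPM in WT and 43.8 and 40.9 CPM in Xbp1-KO, against 155 and 250.1 CPM in WT and 258 and 219 CPM in Xbp1-KO of mesenteric nodes. The 2 tissues did not overlap, with a log2 change of -2.31 ± 0.17 (edgeR adjusted p 1.3e-05). In lymphatic cells Thbs1 did not separate the tissues, with 159 ± 36.9 CPM in peripheral and 156 ± 79.7 CPM in mesenteric sums and a change of 0.01 ± 0.22. Venous Thbs1 changed by -4.27 ± 1.40 (edgeR adjusted p 0.25), from peripheral sums with 0, 0, 38.2 and 156 CPM. Thbd, the other abundant capillary gene, was 453 ± 40.4 CPM in peripheral and 453 ± 43.5 CPM in mesenteric capillary sums.

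Lymphatic Procr was 344, 326, 329 and 324 CPM in the 4 peripheral sums and 168, 166, 146 and 196 CPM in the mesenteric ones. The groups lay apart and the change was 0.88 ± 0.13 (edgeR adjusted p 0.0012). Once blocked by library, 3 more lymphatic genes passed, in a fit that called 13.1% of genes. F8 was higher in peripheral nodes (0.37 ± 0.09, edgeR adjusted p 0.0076) and so was Tfpi (0.30 ± 0.09, 0.035), while Plat was lower (-0.49 ± 0.11, 0.0043). Without the block their edgeR adjusted p values were 0.32, 0.16 and 0.095. Tfpi was 136, 117, 152 and 124 CPM in peripheral and 105, 87.8, 103 and 103 CPM in mesenteric sums, again without overlap. Such separation of 4 sums from 4 was seen in 3 of the 9 genes in lymphatic cells (Vwf, Procr and Tfpi), where 13.7% of all genes tested showed it, in 2 of 7 in capillary cells, where 6.44% did, and in 1 of 5 in venous cells (Vwf; 5.89%). It was seen in none in arterial (3.55%) or high endothelial cells (8.6%). With the block Vwf and Thbs1 stayed the 2 called members in capillary cells (4.63% of genes called), and none was called in high endothelial (0.493%) or venous cells.

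Because capillary and lymphatic clusters take unequal shares of the 2 tissues, the fit was repeated within single clusters, a step added after the subset results were known. Vwf was lower in peripheral cells of the lymphatic Igfbp5 and Nts cluster, at 22.5, 6.20, 38.9 and 27.1 CPM against 182, 291, 376 and 436 CPM, a change of -3.59 ± 0.30 (edgeR adjusted p 1.15e-06; 0.557% of genes called). In the capillary Scgb3a1 and Thrsp cluster, with 82.0 CPM of pooled Vwf, the change was -1.17 ± 0.38 (edgeR adjusted p 0.32). With the block it passed narrowly, at -1.24 ± 0.36 (edgeR adjusted p 0.0498; 1.81% of genes called). That cluster held 910 mesenteric and 202 peripheral cells, whereas the Col13a1 and Plpp3 cluster, with 4.78 CPM of Vwf, held 89 and 741. Reported are 9 clusters with at least 5 cells in every sum.

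Thbs1 was lower in peripheral cells of 3 of the 4 reported capillary clusters in which it was tested. The change was -2.74 ± 0.44 in the Col13a1 and Plpp3 cluster (edgeR adjusted p 0.014; 0.22% of genes called), -2.86 ± 0.35 in the Scgb3a1 and Thrsp cluster (1.9e-05; 0.46%) and -1.79 ± 0.20 in the Igfbp3 and Aqp1 cluster (1.9e-05; 1.07%). In the Ifit3 and Ifit3b cluster it was -1.06 ± 0.63 (edgeR adjusted p 0.70). In the lymphatic Ccl20 and Coch cluster Thbs1 went in the other direction, at 52.5 ± 14.8 CPM in peripheral and 23.4 ± 24.6 CPM in mesenteric sums (SD, n = 4; 1.41 ± 0.34, edgeR adjusted p 0.0077; 8.58% called).

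**Figure D3:**
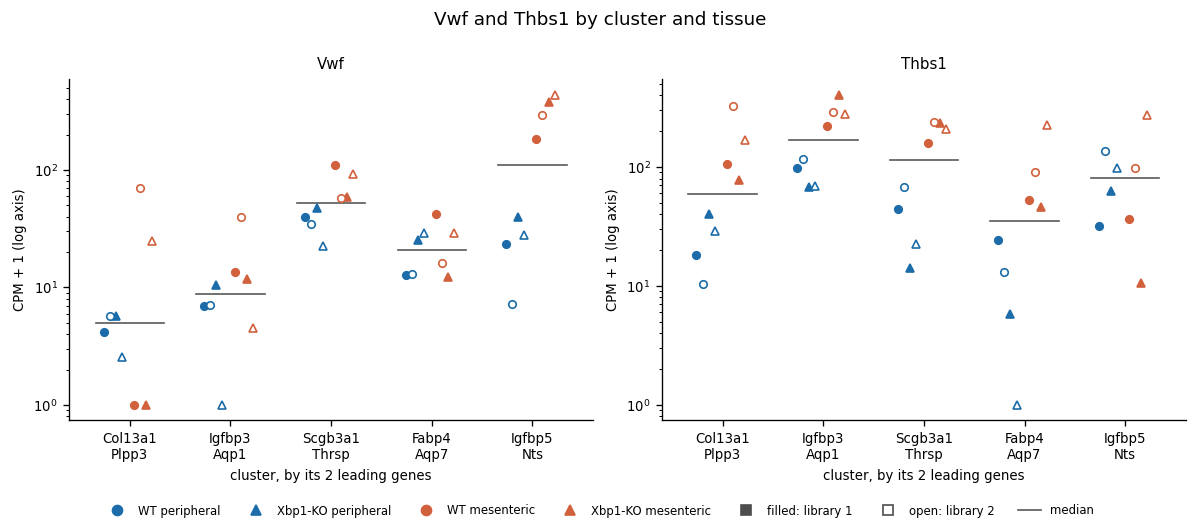
Vwf and Thbs1 (CPM + 1, log axis) in 4 capillary clusters and the lymphatic Igfbp5 and Nts cluster, with the same point code as the plot of levels by subset. Mesenteric sums of Vwf in the lymphatic cluster lie between 182 and 436 CPM, above every peripheral sum there, and mesenteric Thbs1 is higher than peripheral in the Igfbp3 and Aqp1 cluster.

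Procr was higher in peripheral cells of 3 lymphatic clusters, by 1.41 ± 0.18 in the Ccl20 and Coch cluster (edgeR adjusted p 3.6e-06), 0.81 ± 0.19 in the Marco and Lyve1 cluster (0.0054; 5.37% of genes called) and 0.66 ± 0.16 in the Ackr4 and Gdf10 cluster (0.032; 1.88%). F8 was higher in the Ccl20 and Coch cluster (0.63 ± 0.18, edgeR adjusted p 0.022) and in the Igfbp5 and Nts cluster, where the peripheral level was 108 ± 28.8 CPM and the mesenteric level 29.4 ± 36.9 CPM (2.40 ± 0.50, adjusted p 0.030). Tfpi passed narrowly in the Ccl20 and Coch cluster, at 0.64 ± 0.21 (edgeR adjusted p 0.0496). Selp was lower in peripheral cells of the Marco and Lyve1 cluster (-1.80 ± 0.40, edgeR adjusted p 0.0042), at 7.27 to 43.2 against 0 to 131 CPM, ranges that overlapped. With the block further members were called within clusters. In the Ackr4 and Gdf10 cluster (4.71% of genes called) F8 was higher in peripheral cells (0.89 ± 0.19, edgeR adjusted p 0.0035), and Plat (-0.61 ± 0.17, 0.028) and Thbs1 (-0.56 ± 0.16, 0.032) were lower. Plat was also lower in the Igfbp5 and Nts cluster (-0.98 ± 0.21, edgeR adjusted p 0.033; 1.79%), and Thbd was higher in the Ccl20 and Coch cluster (0.53 ± 0.18, 0.042; 13%). In the Marco and Lyve1 cluster (5.45%) the block left the same 2 members called, Selp and Procr. The subset sums did not show the Selp difference, with an overall lymphatic change of -0.27 ± 0.18.

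Other measures moved with the tissue. In the same fits Hspa1a, a heat-shock gene that responds to cell isolation, was lower in peripheral cells by -1.58 ± 0.35 in capillary, -0.94 ± 0.19 in lymphatic, -5.70 ± 0.66 in high endothelial and -4.44 ± 0.74 in venous cells. Of the 17-gene dissociation-response list in lymphatic cells, 6 were higher in peripheral cells (among them Zfp36, Fosb, Ier2 and Junb) and 1, Hspa1a, was lower, with a list median of 0.52. With the block 11 were higher and 3 lower there. These lymphatic fits called 5% of all genes without and 13.1% with the block. In capillary cells Hspa1a was the 1 gene of the list called, and with the block 6 were higher and 2 lower. The capillary fits called 1.14% of all genes without and 4.63% with the block. The summed level of the 17 genes was 28227 to 39821 CPM in peripheral and 21814 to 59116 CPM in mesenteric capillary sums. In lymphatic sums it was 24586 to 26290 and 14657 to 28674 CPM. Markers of pericytes and smooth muscle (8 genes) summed to 16.7 to 32.4 CPM in peripheral and 9.81 to 24.6 CPM in mesenteric capillary sums. In lymphatic sums they came to 92.1 to 132 and 126 to 285 CPM, and in venous sums to 0 to 459 and 116 to 1011 CPM. Tagln of this list was also a leading gene of the venous cluster, so the list is not particular to pericytes and smooth muscle there. Markers of fibroblastic reticular cells (7 genes) summed to 91.4 to 108 CPM in peripheral and 45.1 to 68.3 CPM in mesenteric lymphatic sums, without overlap, and Dcn was called among them (1.29 ± 0.15, edgeR adjusted p 0.00031). Called lower in peripheral lymphatic cells were Rgs5 of the pericyte list (-0.82 ± 0.15, edgeR adjusted p 0.0062) and Clec1b of the platelet list (-0.92 ± 0.22, 0.028). Clec1b was also a leading gene of the lymphatic Marco and Lyve1 cluster, so it does not mark platelets alone here. The fibroblastic reticular markers summed to at most 15.1 CPM in capillary sums and to 2559 CPM in a peripheral venous sum of 1 cell. Leukocyte markers (10 genes) summed to 252 to 380 CPM in peripheral and 221 to 256 CPM in mesenteric lymphatic sums, and to 105 to 145 and 62.5 to 324 CPM in capillary sums. Platelet markers (10 genes) summed to at most 13.7 CPM in capillary sums, at most 109 CPM in high endothelial sums and 168 to 436 CPM in lymphatic sums. Of that list Ppbp was at 0 in 37 of the 40 subset sums and at most 0.641 CPM in the others. Pf4 of the same list was at 48.9 CPM in high endothelial and 36.2 CPM in lymphatic cells, pooled over cells. In venous, capillary and arterial cells Pf4 was at 4.19, 3.12 and 0.568 CPM. The red-cell genes were at most 18.9 CPM in capillary sums except in the Xbp1-KO mesenteric sum of library 1, at 4421 CPM. The part of these measures in the tissue differences was not tested.

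The second comparison asked what loss of Xbp1, which encodes a regulator of protein folding and secretion, did to the same genes. No member tested (9 in lymphatic, 8 in high endothelial, 7 in capillary, 5 each in arterial and venous cells) passed without the library block, in fits that called 0% of genes in capillary, arterial, lymphatic and venous cells and 0.0548% in high endothelial cells. At an unadjusted p under 0.05 these fits gave 646 lymphatic, 244 capillary, 124 arterial, 259 high endothelial and 46 venous genes. With the block, which pairs the pools of a library, Selp and Thbs1 were called higher in Xbp1-KO lymphatic cells, 2 of 9, in a fit that called 0.937% of genes. With the block no member passed in capillary (0.149% of genes called), arterial (0.214%), high endothelial (0.0183%) or venous cells (0%).

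Lymphatic Selp was 22.4 and 29.3 CPM in WT and 23.4 and 31.7 CPM in Xbp1-KO peripheral sums of libraries 1 and 2. In mesenteric sums it was 17.3 and 11.9 CPM in WT and 54.5 and 51.1 CPM in Xbp1-KO. The Xbp1-KO pool was the higher of each of the 4 pairs, with a wide gap in mesenteric and a narrow one in peripheral nodes. The log2 change was 0.80 ± 0.17 with the block (edgeR adjusted p 0.021) and 0.86 ± 0.18 without it (0.23). The test of that difference between the tissues gave -1.50 ± 0.33 with the block (edgeR adjusted p 0.082) and -1.61 ± 0.36 without it (0.63), in fits that called 0.141% and 0% of genes, so it did not pass. The mesenteric WT sum of library 2 rests on 5 UMIs of Selp.

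Lymphatic Thbs1 was 108 and 196 CPM in WT and 161 and 172 CPM in Xbp1-KO peripheral sums, and 93.3 and 126 CPM in WT and 132 and 273 CPM in Xbp1-KO mesenteric sums. It was higher in Xbp1-KO in 3 of 4 pairs, the exception being the peripheral pair of library 2, with a change of 0.51 ± 0.12 with the block (edgeR adjusted p 0.041) and 0.55 ± 0.22 without it (0.80). Lymphatic Sele was higher in 4 of 4 pairs, from 11.1, 11.6, 3.46 and 2.37 CPM in WT to 18.3, 15.4, 5.80 and 22.8 CPM in Xbp1-KO (peripheral of libraries 1 and 2, then mesenteric). The mesenteric values rest on 8 and 1 UMIs in WT and 5 and 38 in Xbp1-KO. Its change of 1.36 ± 0.33 missed the threshold with the block (edgeR adjusted p 0.051), and the change was 1.80 without library 1 and 0.69 without library 2. Lymphatic F8 was also higher in 4 of 4 pairs, from 805, 605, 525 and 332 CPM to 914, 611, 839 and 522 CPM, with 0.35 ± 0.09 (adjusted p 0.071 with the block). WT and Xbp1-KO sums overlapped for each of the 9 genes in lymphatic cells, where 2.42% of all genes tested showed no overlap.

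**Figure D4:**
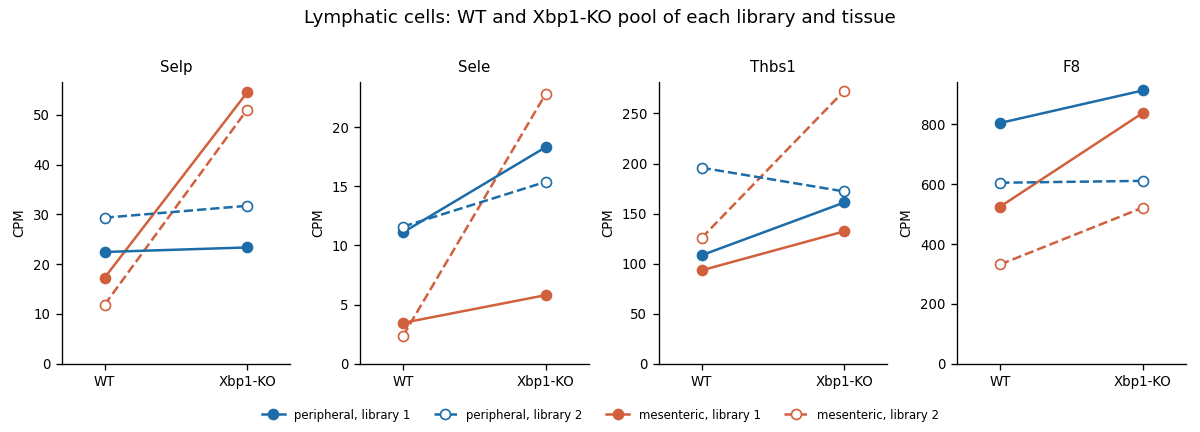
Lymphatic level (CPM, linear axis from 0) of Selp, Sele, Thbs1 and F8 in the WT and Xbp1-KO pool of each tissue and library; each line joins the 2 pools of 1 library and tissue. All 4 lines rise for Selp, Sele and F8 and 3 of 4 for Thbs1, and Selp rises from 11.9 and 17.3 CPM to 51.1 and 54.5 CPM in mesenteric nodes.

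Within single clusters no member passed for genotype, with or without the block. The blocked changes of Thbs1 there were 1.41 ± 0.36 in the Ccl20 and Coch cluster (edgeR adjusted p 0.089), 0.60 ± 0.33 in the Marco and Lyve1 cluster, 0.52 ± 0.16 in the Ackr4 and Gdf10 cluster and 0.60 ± 0.35 in the Igfbp5 and Nts cluster. Those of Selp were 1.5 ± 0.65, 0.25 ± 0.42 and 0.71 ± 0.27 in the first 3 of these. The genotype fits called 0.1% of genes in the Marco and Lyve1 cluster either way, 0.122% without and 0.19% with the block in the Ccl20 and Coch cluster, 0.013% and 0.0907% in the Ackr4 and Gdf10 cluster, 0% and 0.0242% in the Igfbp5 and Nts cluster, and 0.0606% and 0.566% in the Igfbp3 and Aqp1 cluster. In the other 4 they called 0% without and 0% to 0.508% with the block. In lymphatic cells 5 of 17 dissociation-response genes were higher in Xbp1-KO with the block, where 0.937% of all genes were called. Hspa1a was higher by 0.69 ± 0.09 (edgeR adjusted p 0.0010). The 17 genes summed to 14657 to 26290 CPM in WT and 21273 to 28674 CPM in Xbp1-KO. Platelet markers, 10 genes, summed to 337, 227, 332 and 168 CPM in WT and 388, 290.4, 436 and 284 CPM in Xbp1-KO lymphatic sums (peripheral of libraries 1 and 2, then mesenteric), so higher in 4 of 4 pairs. None of the 3 tested genes of that list passed in either fit. The list is not particular to platelets. Its gene Clec1b was a leading gene of the lymphatic Marco and Lyve1 cluster, and Itga2b was also among the markers used to name lymphatic clusters. Platelets also carry Selp and Thbs1 products. The part of both lists in the Selp and Thbs1 values was not tested. In high endothelial cells, the cells named in the study's title, Vwf changed by -0.88 ± 0.40 and Procr by -1.25 ± 0.54 in Xbp1-KO (unadjusted p 0.028 and 0.020; edgeR adjusted p 1.0 for both). Vwf there was 266 and 253 CPM in WT and 65.4 and 493 CPM in Xbp1-KO peripheral sums, and 518 and 195 CPM in WT and 154 and 239 CPM in Xbp1-KO mesenteric sums, so the libraries went opposite ways. Without library 1 the Vwf change was 0.04. Tagln, of the pericyte and smooth muscle list, was called lower in Xbp1-KO in the same fit (-1.96 ± 0.44, edgeR adjusted p 0.020; 0.0548% of genes called). That list summed to 1152 and 15.8 CPM in WT and 21.8 and 164 CPM in Xbp1-KO peripheral sums, and to 487 and 3.39 CPM in WT and 1.93 and 433 CPM in Xbp1-KO mesenteric sums (libraries 1 and 2). Its part in the Vwf and Procr values was not tested. Venous Thbs1 changed by 3.69 ± 1.64 (edgeR adjusted p 0.85), against WT peripheral sums at 0.

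Few genes of the related pathways passed without the block, and more passed with it. Of 36 genes of Weibel-Palade cargo and machinery, 25 were tested in capillary cells, and 1 was lower in peripheral nodes: Edn1, which encodes endothelin-1, a vasoconstrictor peptide stored in these granules (-1.76 ± 0.37, edgeR adjusted p 0.038). These fits called 1.14% of all genes in capillary, 5% in lymphatic and 0.334% in arterial cells. In lymphatic cells 1 of 27 was lower, the granule membrane protein gene Cd63 (-0.47 ± 0.13, edgeR adjusted p 0.047). Of 22 genes of coagulation and anticoagulation, F2rl3, a thrombin receptor gene, was lower in peripheral capillary cells (1 of 11; -2.47 ± 0.49, adjusted p 0.027). In lymphatic cells Gas6 was higher (0.66 ± 0.12, edgeR adjusted p 0.0065) and Serpine2, a thrombin inhibitor gene, lower (-1.18 ± 0.23, 0.0079), 2 of 11. Arterial Serpine2 was higher in peripheral nodes (1 of 8; 2.67 ± 0.39, edgeR adjusted p 0.0013). Of 12 genes on the fibrinolysis list, 1 of 6 was higher in lymphatic cells. It was Thsd1, a gene only placed on that list (0.52 ± 0.13, edgeR adjusted p 0.032). Of 18 genes of platelet restraint and vessel tone none passed in capillary (14 tested) or lymphatic cells (13 tested). With the block, where 13.1% of genes were called in lymphatic cells, 6 of 11 coagulation genes passed there (F5, Serpine2, Hs3st1, Gas6 and Vkorc1 having the largest changes), as did 4 of 27 Weibel-Palade genes (Igfbp7, Angpt2, Cd63 and Edn1) and 1 of 13 platelet-restraint genes (Jam3). In capillary cells, where the blocked fit called 4.63%, 4 of 14 platelet-restraint genes passed (Ptgs1, Cd36, Cd9 and Itgb3), 2 of 11 coagulation genes and 2 of 25 Weibel-Palade genes. List medians without the block in lymphatic cells were 0.06, 0.27, 0.08 and 0.22 for these 4 lists in turn, beside 0.01 over all genes.

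Among 22 transcription factors linked to endothelial haemostasis genes, Mef2c (0.92 ± 0.17, edgeR adjusted p 0.018) and Nfkbia (0.85 ± 0.16, 0.019), the NF-kappa-B inhibitor gene placed on that list, were higher in peripheral capillary cells, 2 of 20 where 1.14% of all genes were called. Klf2, a flow-induced factor, was lower in peripheral high endothelial cells (1 of 20 where 0.365% were called; -1.61 ± 0.41, edgeR adjusted p 0.031). In capillary cells Klf2 was lower with the block (-0.78 ± 0.11, edgeR adjusted p 0.00039). Sox7 was higher in peripheral lymphatic cells (1 of 20 where 5% were called; 0.89 ± 0.18, edgeR adjusted p 0.010). With the block 5 of 20 of these factors passed in capillary and 6 of 20 in lymphatic cells, where 4.63% and 13.1% of all genes were called. For genotype, these 5 lists had no call without the block in any subset. With the block, where 0.937% of all genes were called in lymphatic cells, S100a10 and Anxa2 (2 of 27 Weibel-Palade and 2 of 6 fibrinolysis genes), Serpine2 (1 of 11 coagulation genes) and Cd36 and Cd9 (2 of 13 platelet-restraint genes) were lower in Xbp1-KO, and Klf2 (1 of 20 factors) was higher. In capillary cells Klf6 was higher (1 of 20 factors, 0.149% called). The 17 dissociation-response genes summed to 21814 to 34238 CPM in WT and 28227 to 59116 CPM in Xbp1-KO capillary sums. Their part in the Klf6 change was not tested.

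Over the 40 subset sums the genes most like each member were found among about 828 genes tested in every subset, by Pearson's r of log2(CPM + 10). F8 was nearest to Fth1 (0.93), Stab1 (0.89) and Selenop (0.78), Thbd to Rhob, Jun and Pdgfb (all 0.84), and Tfpi to Ccnd1 (0.86), Ctsl (0.83) and Lrg1 (0.75). Selp was nearest to Lrg1 (0.83), Spint2 (0.80) and Rps20 (0.79), Procr to Cebpd (0.79), Eln (0.76) and Vcam1 (0.75), and Thbs1 to Fam43a (0.72), Sh3bp5 (0.69) and Iigp1 (0.65). Vwf was nearest to Rpl9 (0.82), Rps4x (0.78) and Rps23 (0.77), Plat to S100a11 (0.64), Lrrc58 (0.63) and Srgn (0.63), and Sele to Rps28 (0.61), Spint2 (0.57) and Csrp2 (0.54). The sums share libraries, pools and depth, so these values describe likeness of pattern only.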

How the data were processed

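The authors deposited raw UMI counts for each gene and barcode; the file headers give Cell Ranger 6.0.1, whereas per the submitters' processing notes it was 6.1, with build mm10. The kit version differs between passages of the labels (2 and 3). Coordinates come from GENCODE M21, which held 32158 of the 32285 gene identifiers. Library 1 held 7709 barcodes and 33024170 gene UMIs, library 2 held 2903 and 14744778. Hashtags were called with HTODemux (Seurat 5.3.0, quantile 0.99). Single-tag barcodes passed with 500 or more genes and mitochondrial UMIs of 10% or less, and Scrublet removed 65 and 4 doublets. Scrublet marked 25.5% and 4.62% of barcodes with several tags, so doublets sharing a tag remain. Cells were clustered in scanpy 1.11.5 on 1952 variable genes without the 9 members (30 components, 15 neighbours, Leiden resolution 1) and named from markers, the lymphatic class by Prox1 in at least 25% of cells. Sums per library, pool and subset were tested with edgeR 4.0.16 (quasi-likelihood, filterByExpr, TMM, Benjamini-Hochberg), without a block as the main fit. The pools of a library share one droplet run, so the library pairs them; same-library deviations correlated at 0.14 or more in capillary, 0.12 in arterial, 0.06 in lymphatic, 0.01 in high endothelial and -0.11 in venous sums at the lowest pair. Whether libraries came from separate animals is not in the labels, so p-values measure the spread between these sums. Only the genotype test without the block was checked on simulated counts, which held no library effect. The blocked fits and the other comparisons were not checked in this way. The members, lists, markers and tests were chosen with earlier results of these data known. Named are all 9 genes, up to 5 genes of a list past the threshold by size of change, and the 3 genes most like each member. Intervals cover counting error only. DESeq2 1.42.0, other size factors, no filter, another hashtag rule and resolution 2 were alternatives. 1 further cluster is not reported here.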

Additional observations from a re-analysis of the deposited data

Results flagged for a closer look

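The tissue difference of Vwf had opposite signs in different subsets, in all 4 pairs of pools each time. Its log2 change (peripheral against mesenteric) was 1.43 in venous cells, against -2.59 in capillary, -0.94 in arterial and -3.73 in lymphatic cells. The peripheral venous sums hold 4, 1, 16 and 4 cells, and the difference between subsets was not tested. The venous and arterial changes did not pass in edgeR without the block (adjusted p 0.060 and 0.58).

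Thbd was higher in peripheral lymphatic cells in all 4 pairs (0.10) and lower in peripheral high endothelial cells in all 4 pairs (-1.27). Neither change passed its own test, and the difference was not tested.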

How the results depend on the processing

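The calls of capillary Vwf and Thbs1 and lymphatic Vwf and Procr between tissues held under the block, other size factors, no low-count filter, DESeq2 and the other hashtag rule. The capillary calls also held at resolution 2. That setting left every lymphatic sum unchanged, so it could not test the lymphatic calls. Of 68 member changes, 27 had an unadjusted p under 0.05 in either fit and were followed under each alternative. Without library 1, 3 of these changed sign, all in high endothelial cells: Vwf for genotype (0.04), and Sele (-2.45) and F8 (-3.17) between tissues. Following only these 27 was decided after sign changes had been seen among the other 41, of which 21 changed sign under an alternative and 0 were called under any. Venous Vwf was called by DESeq2 (1.41, adjusted p 0.049). Lymphatic Selp, Sele and Thbs1 were called for genotype without the low-count filter (edgeR adjusted p 0.0019, 0.0013 and 0.025).

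Counts of genes called moved with the setting. For tissue, the main counts of 20 high endothelial, 3 venous, 107 capillary, 14 arterial and 533 lymphatic genes became 434 capillary, 61 arterial and 1395 lymphatic with the replicate block. DESeq2 gave 7 high endothelial, 6 arterial and 349 lymphatic, and no filter gave 13 venous, 288 capillary and 877 lymphatic. The other hashtag rule gave 10 high endothelial, 17 venous and 6 arterial, and resolution 2 gave 12, 7 and 24. For genotype, main counts of 3 high endothelial genes and 0 in the other subsets became 1, 14 capillary, 9 arterial and 100 lymphatic with the block. DESeq2 gave 0 high endothelial and 11 lymphatic, no filter 1 high endothelial, 16 capillary, 3 arterial and 72 lymphatic, the hashtag rule 1 high endothelial and 1 venous, and resolution 2 gave 0 high endothelial. For the difference of the genotype effect between tissues, main counts of 2 venous, 4 arterial and 0 other genes became 1 high endothelial, 4 capillary, 22 arterial and 15 lymphatic with the block. DESeq2 gave 0 arterial and 2 lymphatic, no filter 1 venous, 7 capillary and 25 lymphatic, and the hashtag rule 1 high endothelial and 0 venous. Without sums under 5 cells, chosen after the cell numbers were seen, high endothelial counts were 34 for tissue and 2 for the difference, and 50, 1 (genotype) and 3 with the block. This was not run for venous cells, where both WT peripheral sums have under 5 cells. The cause of these shifts was not tested. Venous and high endothelial sums are limited by few cells (1 to 26 and 2 to 115).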
